A study of Mus musculus with 6 samples.

Results

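The Hippo pathway effectors and YAP targets examined here were 10 genes, the coactivators *Yap1* and *Wwtr1* (which encodes TAZ), their DNA-binding partners *Tead1*, *Tead2*, *Tead3* and *Tead4*, the kinase *Lats2*, the YAP-binding scaffold *Amotl2*, and *Ccn1* and *Ccn2*, which encode secreted matricellular proteins. They were chosen by gene symbol, through the Ensembl identifier of each row of the count table, and all 10 were found among the 35565 identifiers listed. All 10 also passed edgeR's filter on low counts, which kept 15110 genes. Gastruloids are aggregates of embryonic stem cells (ESCs) that elongate and form an anterior-posterior axis in culture. Bulk RNA sequencing measured them at day 5, 3 libraries being from Control (NT) gastruloids, whose ESCs are non-targeting cells, and 3 from KD-1 gastruloids. In KD-1, a clone of ESCs, the study silenced the lncRNA *T-UCstem1*, which harbours an ultraconserved element. Both lines derive from mESCs TBV2 129/SvP, both were expanded with LIF and inhibitors of GSK3 and MEK, and both kinds of gastruloid received a pulse of CHIR99021, a WNT pathway agonist. The labels give the genotype of the control as WT, whereas the study describes non-targeting cells. Each group came from a single line, so the silencing and any other difference between the lines cannot be told apart. *T-UCstem1* has no value here, so the silencing was not checked in these libraries.

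In the Hippo pathway the kinases MST1 and MST2 (*Stk4*, *Stk3*) with SAV1 activate LATS1 and LATS2 with their MOB1 partners, and the LATS kinases phosphorylate YAP and TAZ, which are then held in the cytoplasm or degraded. Unphosphorylated YAP and TAZ enter the nucleus and bind TEAD proteins, which contact DNA, and so drive genes such as *Ccn1*, *Ccn2*, *Amotl2* and *Lats2*. *Lats2* and *Amotl2* encode inhibitors of YAP, and so are part of a feedback loop. The pathway acts largely through protein phosphorylation and localization, neither of which RNA levels measure. In the early mouse embryo it is best known for the choice between trophectoderm, where TEAD4 and YAP are active, and inner cell mass.

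The libraries held between 20982249 and 85561026 counts, and those of a group are named here by their depth. Every pair of libraries of a group differed by more than sampling noise. The middle-depth Control (NT) library stood apart, with a chi-square per degree of freedom of 36.3 and 36.5 against the other 2, which differed from each other by 15.3, and the KD-1 pairs lay between 4.85 and 11.1. It also read low for long transcripts. Against the mean of the other 2 Control (NT) libraries, its median log2 difference was 0.14 over 2054 genes whose longest transcript was under 2 kb and -0.17 over 3631 genes of 6 kb and over. Values with this library left out, or with the trend on transcript length removed, are therefore given beside the members they touch. Called genes have an adjusted p under 0.05 (edgeR's quasi-likelihood test, Benjamini-Hochberg over all genes tested) and a fold change over 1.5 in either direction. By this rule 5704 of the 15110 genes tested, or 37.7%, were called, 19.7% as higher and 18.1% as lower in KD-1, and the 2 groups did not overlap for 70.6% of genes. The labels call the samples biological replicates. Where these were not separate cultures, p-values measure technical spread only.

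The letters to which TEAD proteins bind are shown for the members whose promoters are in the RefSeq table used (GRCm38.p6, from 250 bases before to 50 after the transcription start), because the members are grouped here by this shared partner. The motif searched was GGAATG, or CATTCC on the other strand. It was found for 6 of the 7 members in that table (*Yap1*, *Wwtr1*, *Tead3*, *Lats2*, *Amotl2* and *Ccn1*, and not *Tead2*), and for 16.6% of all 27025 genes in the table. *Wwtr1* has 2 listed starts, *Tead3* has 3 and *Lats2* has 2, which gives each more than 1 window. *Tead1*, *Tead4* and *Ccn2* are not in the table. The first match of each is printed 5′ to 3′ on the strand of its gene, with the motif in capitals.
Yap1: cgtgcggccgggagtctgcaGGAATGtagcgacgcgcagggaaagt
Wwtr1: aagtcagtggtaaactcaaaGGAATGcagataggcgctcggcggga
Tead3: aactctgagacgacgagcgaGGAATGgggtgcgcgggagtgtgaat
Lats2: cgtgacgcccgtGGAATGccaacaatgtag
Amotl2: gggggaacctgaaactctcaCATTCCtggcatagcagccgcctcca
Ccn1: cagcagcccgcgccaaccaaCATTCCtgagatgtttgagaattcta
These lie on GRCm38.p6 at chr9:8004712-8004757 (minus strand), chr3:57576021-57576066 (minus), chr17:28350962-28351007 (minus), chr14:57746102-57746131 (minus), chr9:102717719-102717764 (plus) and chr3:145650063-145650108 (minus). The motif ends 135 bases before the start of *Yap1*, 130 before a start of *Wwtr1*, 176 before a start of *Tead3*, 59 before that of *Amotl2* and 97 before that of *Ccn1*. In *Lats2* it begins at base 5 of the transcript. Around another start of *Tead3* there were 3 further matches. A match describes letters only, and binding was not measured.

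Of the 10 members, 6 were called, against 37.7% of all genes tested. *Tead1*, *Lats2* and *Ccn2* were higher in KD-1, and *Tead2*, *Tead3* and *Tead4* were lower. *Yap1*, *Wwtr1*, *Amotl2* and *Ccn1* were not called. The groups did not overlap for 9 members, *Ccn1* being the exception, against 70.6% of all genes tested. The median log2 fold change of the members was 0.13, against -0.01 over all genes tested. Markers of several cell types, given after the members, differed between the same libraries, and in bulk samples fewer cells of a type and less RNA per cell cannot be told apart.

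**Figure D1:**
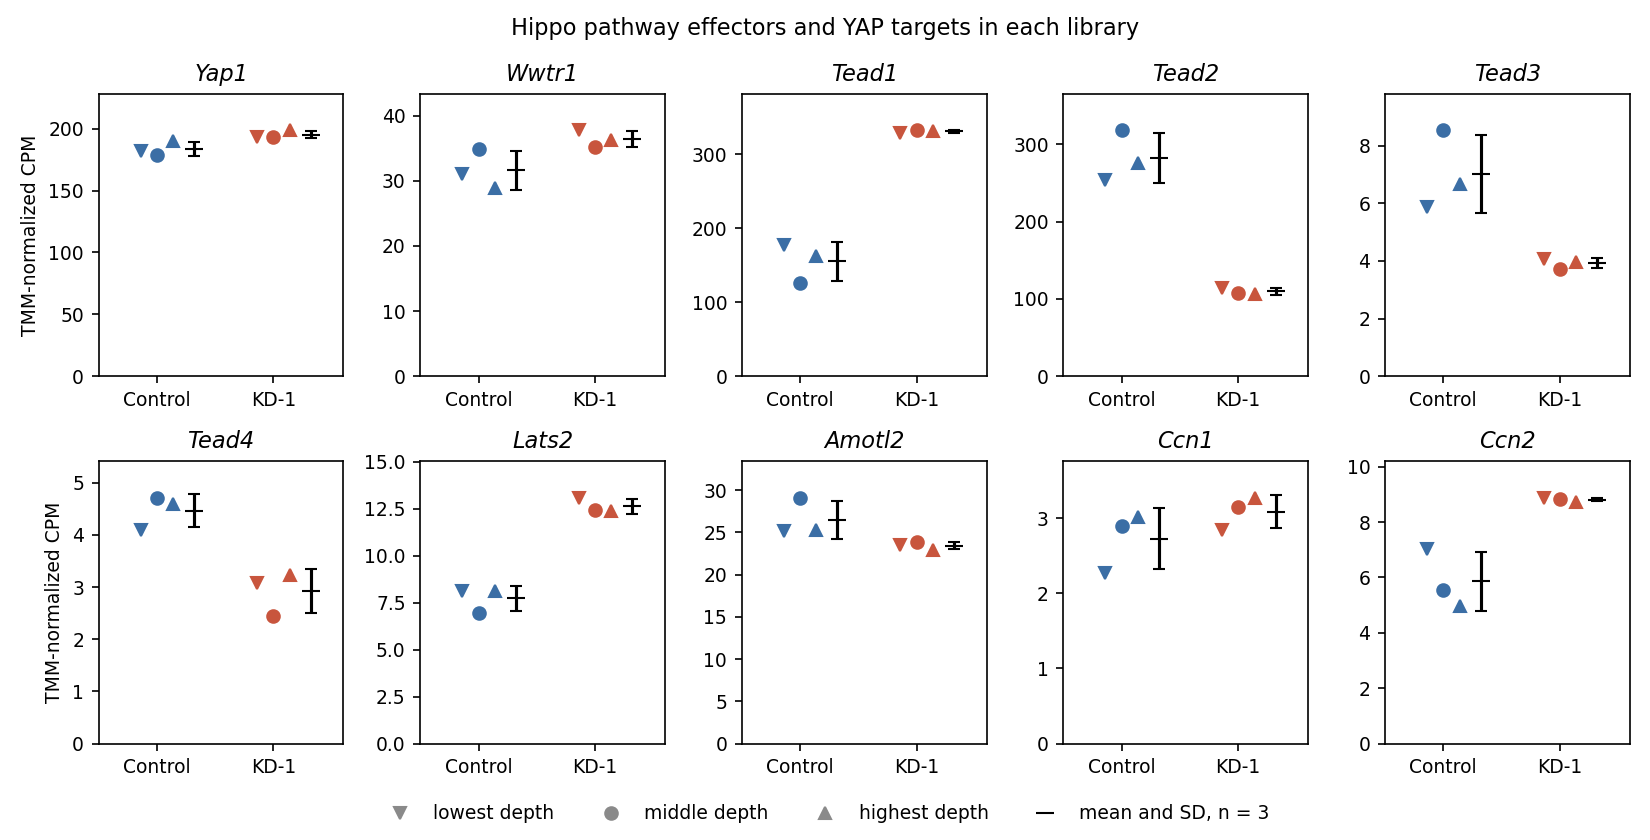
Level of each of the 10 members in TMM-normalized CPM (vertical axis, from 0) in the 3 Control (NT) and 3 KD-1 libraries, with the marker shape giving the depth of the library and black bars the mean and SD. *Tead1* sits at 329 to 332 CPM in KD-1 against 126 to 178 in Control (NT), *Tead2* shows the opposite order, and only the *Ccn1* libraries of the groups overlap.

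The coactivators differed little. *Yap1* (ENSMUSG00000053110, GRCm39 chromosome 9, from 7932000 to 8004661, minus strand) had 182, 178 and 190 TMM-normalized CPM in the Control (NT) libraries of lowest, middle and highest depth and 193, 194 and 199 in those of KD-1. All KD-1 libraries were above all Control (NT) libraries, by little. The log2 fold change of 0.09 had a standard error of 0.05 and a 95% interval from -0.03 to 0.21, which holds no 1.5-fold change, and *Yap1* was not called (adjusted p = 0.17, edgeR). It was 0.07 without the middle-depth Control (NT) library. *Wwtr1* (ENSMUSG00000027803, chromosome 3, from 57363067 to 57483331, minus strand), its paralog, had 31.1, 34.9 and 28.9 CPM in Control (NT), against 37.7, 35.2 and 36.3 in KD-1. The middle-depth Control (NT) library nearly reached the lowest KD-1 library. With edgeR the difference came to a log2 fold change of 0.21 (95% interval 0.02 to 0.39, adjusted p = 0.055), and to 0.28 (adjusted p = 0.00196), still under the fold threshold, without the middle-depth Control (NT) library. Per kb of its longest transcript, *Wwtr1* stood at 0.194 ± 0.0245 (SD, n = 3) of the level of *Yap1* in Control (NT) and at 0.210 ± 0.00835 (SD, n = 3) in KD-1. The log2 of this ratio was higher by 0.12 in KD-1 (two-sided exact permutation test, p = 0.5). With 3 libraries against 3, this test cannot give a p under 0.1. Without the middle-depth Control (NT) library the difference was 0.21, and without that of highest depth it was 0.03.

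*Tead1* and *Tead2* moved most, and in opposite directions. TEAD1 and TEAD2 are close relatives that bind the same DNA motif and the same coactivators. *Tead1* (ENSMUSG00000055320, chromosome 7, from 112278522 to 112506014, plus strand) had 178, 126 and 162 CPM in the Control (NT) libraries and 329, 332 and 332 in those of KD-1. The KD-1 libraries lay close together and far above the Control (NT) libraries, of which that of middle depth was the lowest. This 2.13-fold rise is a log2 fold change of 1.09 with a standard error of 0.11 (edgeR, adjusted p = 4.75e-05). The longest transcript of *Tead1* has 9969 bases, and over the 3631 genes of 6 kb and over the median log2 fold change was 0.15. The value was 0.96 without the middle-depth Control (NT) library and 0.87 with the trend on length removed, an alternative chosen after seeing the data, and the call held in both.

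*Tead2* (ENSMUSG00000030796, chromosome 7, from 44865172 to 44883071, plus strand) had 254, 318 and 275 CPM in Control (NT), against 114, 108 and 107 in KD-1. No KD-1 library came near the lowest Control (NT) library. Its level was 2.58-fold lower in KD-1, with a log2 fold change of -1.37 and a standard error of 0.08 (edgeR, adjusted p = 2.64e-06). It was -1.28 without the middle-depth Control (NT) library. Of the 31-base words of its longest transcript, 9.25% also occur in other genes, mostly in *Cd37*, which overlaps it on the opposite strand. *Cd37* itself had between 50 and 244 counts per library, against at least 4697 for *Tead2*. Whether the counting used strand is not stated, and reads of the pair may be mixed to that extent.

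*Tead3* and *Tead4* were far less abundant. *Tead3* (ENSMUSG00000002249, chromosome 17, from 28550645 to 28569791, minus strand) had 5.88, 8.53 and 6.66 CPM in Control (NT), against 4.08, 3.72 and 3.95 in KD-1. All KD-1 libraries were below all Control (NT) libraries. edgeR gave a log2 fold change of -0.85 with a standard error of 0.16 (adjusted p = 0.00149), and -0.70 without the middle-depth Control (NT) library, its highest value. *Tead4* (ENSMUSG00000030353, chromosome 6, from 128201251 to 128277786, minus strand), which encodes the TEAD protein of early trophectoderm, had 4.10, 4.71 and 4.58 CPM in Control (NT), against 3.08, 2.44 and 3.24 in KD-1. The groups did not overlap, and the middle-depth KD-1 library was the lowest. Its log2 fold change of -0.61, with a standard error of 0.16, lay just past the fold threshold (edgeR, adjusted p = 0.00871). The call was lost, with a value of -0.49, without the middle-depth KD-1 library and, with -0.58, without the middle-depth Control (NT) library. It was also lost with DESeq2 (-0.58), with scaling by library size only (-0.56) and when at least 10 counts were required in every library (-0.57).

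Per kb of the longest transcript, the makeup of the TEAD transcripts changed from mostly *Tead2* to nearly equal parts of *Tead1* and *Tead2*. The near equality depends on this length. With no length scaling, KD-1 had 331 CPM of *Tead1* against 110 of *Tead2*. The shares are of the summed counts of the 4 genes, each divided by its longest annotated transcript, and so do not depend on the scaling between libraries. *Tead1* made up 18.9%, 11.6% and 16.4% of the sum in the Control (NT) libraries and 48.5%, 50.2% and 50.3% in those of KD-1. *Tead2* made up 78.6%, 85.4% and 80.9% in Control (NT), against 49.0%, 47.5% and 47.1% in KD-1. For both genes the groups were far apart, and the SD of the *Tead1* share was 3.68 percentage points in Control (NT) and 1.02 in KD-1. The share of *Tead1* was 34.0 percentage points higher in KD-1 and that of *Tead2* was 33.7 percentage points lower (-33.7), each with p = 0.1, the smallest this two-sided exact permutation test can give, and 0.133 after Benjamini-Hochberg adjustment over the 4 genes. The *Tead1* difference was 32.0 percentage points without the middle-depth Control (NT) library, 35.8 with the union of exons as the length and 39.3 with no length scaling. For *Tead2* these were -31.85, -35.4 and -38.3. *Tead3* made up 2.01% ± 0.240 in Control (NT), against 1.70% ± 0.0625 in KD-1 (SD, n = 3 each). The difference of -0.31 percentage points did not pass the exact permutation test either (p = 0.1, adjusted 0.133), and was -0.18 without the middle-depth Control (NT) library and -0.68 with no length scaling. *Tead4* made up 0.746% ± 0.0274 (SD, n = 3) and 0.735% ± 0.106 (SD, n = 3), and its difference of -0.01 percentage points (exact permutation test, p = 0.9) turned positive without the highest-depth Control (NT) library (0.0048) or the middle-depth KD-1 library (0.047).

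The sum of the 4 TEAD transcripts depended on the scale. In TMM-normalized CPM the sum was between 442 and 457 in the Control (NT) libraries and between 445 and 450 in those of KD-1, so the groups overlapped. In CPM per kb of the longest transcript it was 101 ± 7.29 in Control (NT), against 66.9 ± 1.05 in KD-1 (SD, n = 3 each), and the groups did not overlap. The transcript of *Tead2* has 3424 bases and that of *Tead1* 9969, so a read of *Tead2* weighs more per kb. With the union of annotated exons as the length, the sums were 64.9 ± 4.26 (SD, n = 3) and 45.5 ± 0.644 (SD, n = 3) CPM per kb. The isoforms that the cells used were not measured here. The summed level of *Yap1* and *Wwtr1* was 41.5 ± 0.573 CPM per kb in Control (NT), against 44.7 ± 0.591 in KD-1 (SD, n = 3 each).

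**Figure D2:**
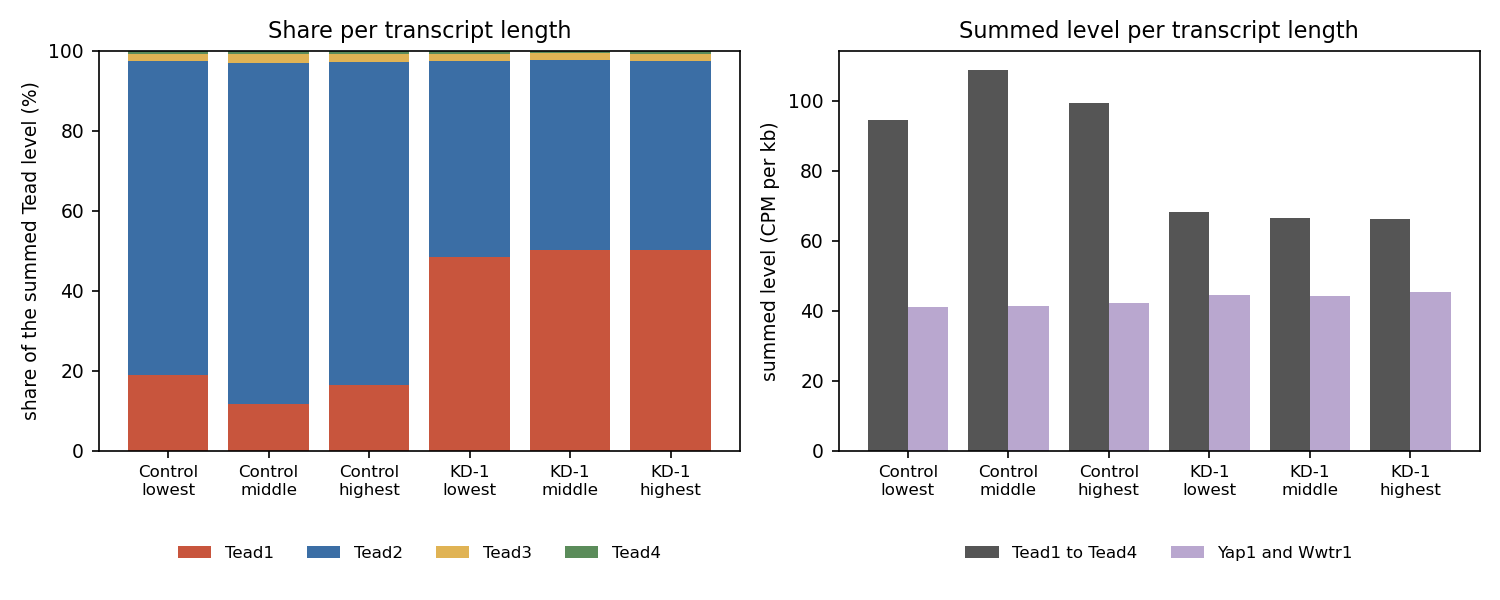
Left, share in percent of each TEAD gene in the summed level of *Tead1* to *Tead4* per transcript length, 1 bar per library named by group and depth. Right, the summed level of the TEAD genes and of *Yap1* and *Wwtr1* in CPM per kb. *Tead1* takes 11.6% to 18.9% of a Control (NT) bar and 48.5% to 50.3% of a KD-1 bar.

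The order of the members by level per kb of the longest transcript also changed at its top. In Control (NT), *Tead2* led with 82.5 ± 9.50 CPM per kb (SD, n = 3), ahead of *Yap1* with 34.7 ± 1.13 and *Tead1* with 15.6 ± 2.65. In KD-1, *Yap1* led with 36.9 ± 0.567 CPM per kb (SD, n = 3), ahead of *Tead1* with 33.2 ± 0.173 and *Tead2* with 32.0 ± 1.16, whose libraries overlapped. *Wwtr1*, *Amotl2* and *Ccn2* followed in this order in both groups, from 7.75 CPM per kb for *Wwtr1* in KD-1 down to 2.15 for *Ccn2* in Control (NT). The lowest levels were those of *Tead3*, *Ccn1*, *Lats2* and *Tead4* in Control (NT), and of *Lats2*, *Ccn1*, *Tead3* and *Tead4* in KD-1. In Control (NT) the neighbours *Wwtr1* and *Amotl2*, *Ccn2* and *Tead3*, and *Ccn1* and *Lats2* had overlapping libraries. In KD-1 only *Tead1* and *Tead2* did. This order depends on the length used. With no length scaling, *Tead1* led in KD-1 with 331 CPM, against 195 for *Yap1* and 110 for *Tead2*. In Control (NT), *Tead2* led on that scale too, with 282 CPM. The union of exons has 11834 bases for *Wwtr1* and 7060 for *Amotl2*, against 4700 and 4620 for the longest transcripts. The order of that pair therefore also depends on the length.

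Of the inhibitors among the members, both also known as YAP targets, *Lats2* was called and *Amotl2* was not. *Lats2* (ENSMUSG00000021959, chromosome 14, from 57926960 to 57995845, minus strand) had 8.10, 6.96 and 8.10 CPM in Control (NT), against 13.1, 12.4 and 12.4 in KD-1. The groups were well apart. *Lats2* rose 1.63-fold, a log2 fold change of 0.71 with a standard error of 0.10 (edgeR, adjusted p = 0.000294), and of 0.63 without the middle-depth Control (NT) library. The annotation holds *Gm49361* on the same strand, which shares 49.5% of the 31-base words of *Lats2* and so could take its reads. It had 7, 0 and 16 counts in the Control (NT) libraries and 0, 0 and 1 in those of KD-1, against 168, 235 and 449 and then 548, 540 and 1074 for *Lats2*. With the counts of both added, the log2 ratio of the group means was 0.67, against 0.71 for *Lats2* alone. *Amotl2* (ENSMUSG00000032531, chromosome 9, from 102593836 to 102610617, plus strand) had 25.1, 29.1 and 25.3 CPM in Control (NT), against 23.5, 23.8 and 22.9 in KD-1. The KD-1 libraries lay just below those of Control (NT). The difference of -0.18 on the log2 scale (95% interval -0.36 to -0.00056) did not pass edgeR's test (adjusted p = 0.074), and the interval holds no 1.5-fold change. Without the middle-depth Control (NT) library, its highest, the value was -0.11.

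The CCN genes were low in both groups. *Ccn2* (ENSMUSG00000019997, chromosome 10, from 24471333 to 24474900, plus strand), often used as a readout of YAP activity, had 7.04, 5.57 and 4.98 CPM in Control (NT), against 8.87, 8.83 and 8.74 in KD-1. All KD-1 libraries were higher and nearly equal, while those of Control (NT) were spread. *Ccn2* rose 1.52-fold, by 0.61 on the log2 scale with a standard error of 0.14 (edgeR, adjusted p = 0.00449), and without the highest-depth Control (NT) library the value was 0.49 and not called. It was 0.60 without the middle-depth one. *Ccn1* (ENSMUSG00000028195, chromosome 3, from 145352720 to 145355738, minus strand), the other common readout, had 2.27, 2.90 and 3.01 CPM in Control (NT), against 2.84, 3.15 and 3.27 in KD-1. Here the groups overlapped, with 47 to 284 counts per library. A log2 fold change of 0.16 with a 95% interval from -0.22 to 0.55 was not called by edgeR (adjusted p = 0.41). It was 0.06 without the lowest-depth Control (NT) library, its lowest, and 0.18 without the middle-depth one. With the trend on transcript length removed it was 0.36 (adjusted p = 0.079). Antisense lncRNAs overlap both genes, *Gm17501* with 20.7% of the 31-base words of *Ccn1* and *Gm15270* with 29.5% of those of *Ccn2*, and their own levels were not analysed here. Of the other CCN genes, *Ccn3* was also called higher, at 0.106 ± 0.0980 CPM in Control (NT), against 0.633 ± 0.0309 in KD-1 (SD, n = 3 each). *Ccn4* and *Ccn5* were too low to be tested, and *Ccn6* had no count in any library.

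**Figure D3:**
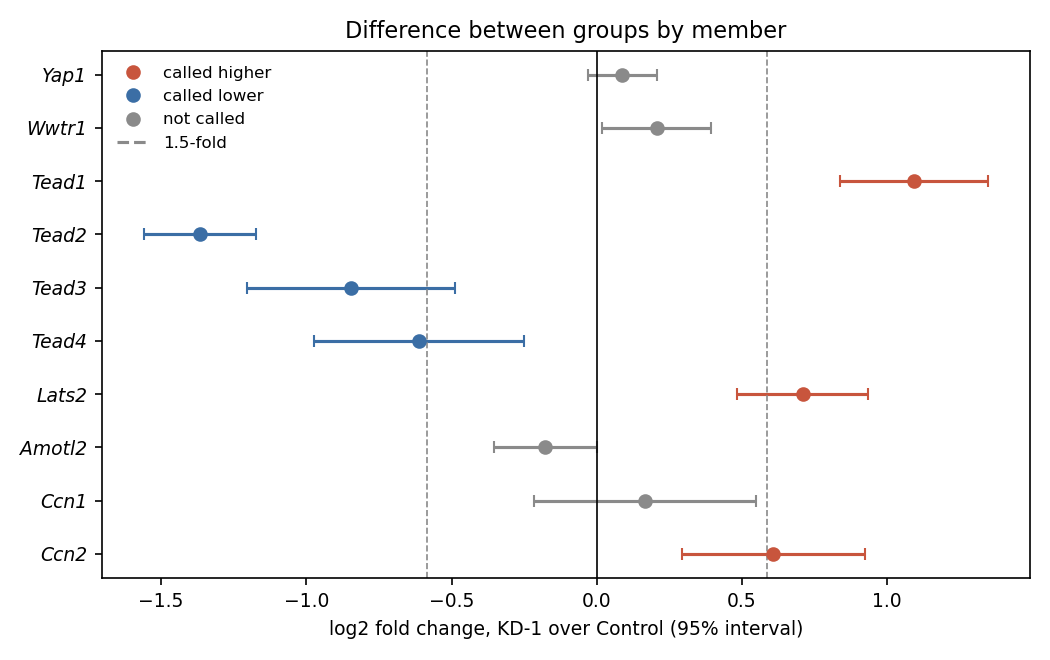
Log2 fold change of KD-1 over Control (NT) for each member (horizontal axis), with 95% intervals from edgeR's fit and dashed lines at a 1.5-fold change. The intervals of *Tead1* and *Tead2* lie beyond the dashed lines on opposite sides, while those of *Yap1*, *Wwtr1*, *Amotl2* and *Ccn1* lie between them.

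The kinase cascade upstream of YAP, taken without *Lats2*, held 7 genes, of which 2 were called higher and 1 lower. The called genes were 42.9% of these, against 37.7% of all genes tested. *Stk4*, which encodes the kinase MST1, rose from 56.8 ± 6.35 to 92.3 ± 1.56 CPM (SD, n = 3 each) (log2 fold change 0.70, edgeR, adjusted p = 0.000108). This call was lost with the trend on length removed. *Mob1b*, a partner of the LATS kinases, rose by 0.87 on the log2 scale (edgeR, adjusted p = 2.40e-05), and its paralog *Mob1a* had 0.43, under the fold threshold. *Lats1* had 52.5, 40.1 and 47.5 CPM in Control (NT), against 25.1, 26.9 and 29.0 in KD-1, so that all KD-1 libraries were lower. edgeR gave -0.79 on the log2 scale with a standard error of 0.10 (adjusted p = 0.000226), opposite in direction to *Lats2*. Per kb, *Lats2* stood at 0.212 ± 0.0131 (SD, n = 3) of the level of *Lats1* in Control (NT) and at 0.600 ± 0.0609 (SD, n = 3) in KD-1, values chosen for display after the levels of both were seen. *Nf2*, the tumour suppressor Merlin, had 0.51, under the fold threshold, and *Stk3* (-0.15) and *Sav1* (-0.12) were not called.

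Among the 19 upstream activators, 3 were called higher and 7 lower, with a median log2 fold change of -0.12. The called genes made up 52.6% of the list, against 37.7% of all genes tested. *Wwc1*, which encodes the scaffold KIBRA, rose from 6.68 ± 0.853 to 15.3 ± 0.615 CPM (SD, n = 3 each; log2 fold change 1.19, adjusted p = 2.95e-05, edgeR). *Dchs2*, a large cadherin, rose from 0.307 ± 0.227 to 2.01 ± 0.338 CPM, and *Crb3*, of the Crumbs polarity complex, from 0.836 ± 0.329 to 1.56 ± 0.229 CPM (SD, n = 3 each). The call of *Crb3* (log2 fold change 0.86) held without the middle-depth Control (NT) library (1.14). It was lost in every other fit that left out a library. Over all these fits the values ran from 0.67 to 1.14. The falls were led by *Dchs1*, the cadherin that is the ligand of FAT4, with a log2 fold change of -1.57. *Frmd6*, a partner of Merlin and KIBRA, followed with -1.45 and *Rassf1*, a binding partner of the MST kinases, with -1.18.

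Of the other scaffolds that bind YAP, 2 of 6 were called, both lower, and both are motins like *Amotl2*. *Amot* had 50.7 ± 4.97 CPM in Control (NT), against 29.8 ± 1.01 in KD-1 (SD, n = 3 each) (log2 fold change -0.77, edgeR, adjusted p = 6.94e-05). *Amotl1* had 136, 122 and 135 CPM in Control (NT), against 66.3, 65.9 and 66.0 in KD-1, and its log2 fold change was -0.99 (adjusted p = 2.39e-06, edgeR). Among the 9 inhibitors of the cascade, *Ajuba* (0.82) and *Sike1* (0.72) were called higher. *Vgll4*, which competes with YAP for TEAD proteins, fell from 13.2 ± 0.766 to 5.63 ± 0.454 CPM (SD, n = 3 each; log2 fold change -1.23, adjusted p = 1.71e-05, edgeR). *Vgll3* was not called (0.11), and *Vgll1* and *Vgll2* were too low to be tested. Over the 45 genes of the cascade other than members, 43 were tested, 7 were called higher and 12 lower, 44.2% against the 37.7% of all genes, with a median log2 fold change of -0.01. With scaling by library size only, 9 were higher and 10 lower.

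A list of genes widely used as targets of YAP and TAZ, taken without the 4 members in it, held 18 genes. Of the 16 tested, 9 were called lower and 1 higher, against 18.1% and 19.7% of all genes tested, and their median log2 fold change was -0.99. *Ccdc80*, a secreted matrix protein, fell most, from 5.90 ± 1.12 to 0.0545 ± 0.0274 CPM (SD, n = 3 each), which rests on 3, 1 and 6 counts in the KD-1 libraries. *Axl*, a receptor tyrosine kinase, had 7.38, 7.28 and 7.78 CPM in Control (NT), against 2.15, 2.34 and 2.16 in KD-1. edgeR gave -1.76 on the log2 scale with a standard error of 0.13 (adjusted p = 5.90e-06), and -1.71 for *Nt5e*, the ectonucleotidase CD73. *Fjx1* alone was called higher, from 4.20 ± 0.640 to 7.94 ± 1.27 CPM (SD, n = 3 each; log2 fold change 0.91, adjusted p = 0.00125, edgeR). *Ankrd1*, a further common readout of YAP, had 0 counts in all 6 libraries, which allows up to 0.145 CPM in the shallowest library and 0.0345 in the deepest. The members of the same list were *Lats2* and *Ccn2*, called higher, and *Amotl2* and *Ccn1*, not called. The 10 calls in the list varied between 8 and 11 over all the alternative settings.

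**Figure D4:**
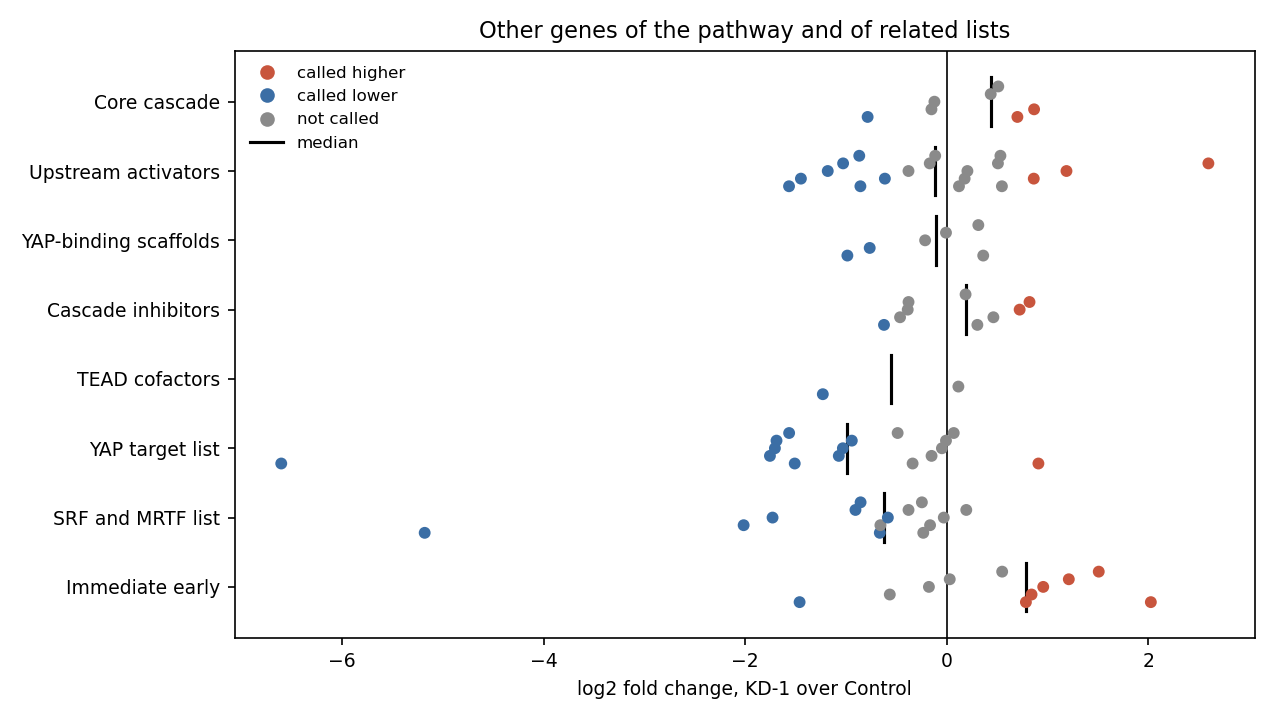
Log2 fold change of KD-1 over Control (NT) for the tested genes of 8 lists (1 point per gene, members left out), with vertical bars at the median of each list. The points of the YAP target list lie mostly on the left, with a median of -0.99, while those of the core cascade lie on both sides of 0.

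Lists of 2 other programmes tied to the CCN genes were also counted. Of 14 tested genes of SRF and its MRTF coactivators, which regulate *Ccn1* and *Ccn2* too, 7 were called lower, none higher and 7 not at all, against 18.1% of all genes called lower, with a median log2 fold change of -0.62. *Acta2* had 1.51 ± 0.670 CPM in Control (NT), against 0.0310 ± 0.0351 in KD-1 (SD, n = 3 each), *Cnn1* had a log2 fold change of -2.02 and *Tgfb1i1* of -1.73. *Srf* itself was called lower (-0.67), but not without the middle-depth Control (NT) library (-0.57). Of 11 tested immediate early genes, 6 were called higher, 1 lower and 4 not at all, against 19.7% of all genes called higher, with a median of 0.78. *Egr1* rose from 2.69 ± 0.235 to 7.71 ± 0.0944 CPM (SD, n = 3 each; log2 fold change 1.51), and *Fosb* rose by 1.21 on the log2 scale. *Egr2*, with 2 to 63 counts per library, had 2.02, and its call was lost without the highest-depth Control (NT) library or the KD-1 libraries of lowest or highest depth, with values from 1.36 to 2.51 over all fits that left out 1 library. *Atf3* fell by 1.46 on the log2 scale.

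Markers of cell types moved in the same libraries as the members. Of all genes tested, 19.7% were called higher and 18.1% lower, beside which the counts of markers stand. Of 7 gastruloid markers, 2 were called higher and 3 lower. *T* was not called (6.69 ± 1.77 and 5.42 ± 0.407 CPM, SD, n = 3 each, log2 fold change -0.31), nor was *Cdx4* (0.47), while *Cdx2* (26.9 ± 3.03 and 11.3 ± 0.688 CPM, -1.25), *Cdx1* (5.56 ± 0.579 and 0.306 ± 0.0765 CPM, -4.22) and *Tbx6* (-1.47) were lower. *Sox2* (2.22) and *Pou5f1* (1.29) were higher. The call of *Tbx6* was lost without the highest-depth KD-1 library, with values from -1.60 to -1.29 over all fits that left out 1 library. Of 9 tested markers of paraxial mesoderm and somites, all 9 were called lower. The sum of the list went from between 589 and 649 CPM in Control (NT) to between 46.3 and 47.0 in KD-1. *Msgn1* was too low to be tested, with 0, 0 and 3 counts in Control (NT) and 0 in every KD-1 library. Of 9 markers of naive pluripotency, 7 were called higher and none lower, and their sum was between 429 and 479 CPM in Control (NT) and between 1405 and 1440 in KD-1. Of 6 tested trophectoderm markers 1 was called higher and 2 lower (*Esx1* and *Plac1*), with sums of 25.6 to 31.3 and 51.2 to 53.1 CPM, most of it *Tfap2c*. The call of *Plac1* was lost with DESeq2 and with the trend on length removed. Among the fits that left out 1 library, it held only without the lowest-depth Control (NT) library. Of 4 tested endothelial markers 2 were called higher and 1 lower, with sums of 18.2 to 19.2 and 33.9 to 36.0 CPM, most of it *Pecam1*, and *Emcn* was at 0 in KD-1. The 9 fibroblast markers, which feeder cells would carry, summed to between 8.92 and 9.58 CPM in Control (NT) and between 1.51 and 1.79 in KD-1. *Col3a1* alone had 5.44 ± 0.328 and 0.120 ± 0.0289 CPM (SD, n = 3 each). Of the 5 tested, 3 were called lower, while *Thy1* (log2 fold change 1.59) and *Loxl1* (0.84) leaned higher and were not called. Of the 3, *Col1a1* lost its call without the middle-depth or the highest-depth KD-1 library. *Lum* and *Postn*, too low to be tested, were at 0 in KD-1. The part of these cell types in the differences of the members was not tested.

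Over the 6 libraries, the genes whose log2 CPM followed that of *Yap1* most closely were the low-count genes *Gm57858*, *Gm3946* and *Gm36298* (Pearson's r of 0.99 for each), and 703 genes had r over 0.9. For *Ccn1* they were *Psmd14*, *Zfp426* and *Col4a5* (0.97, 0.97 and 0.96), and 73 genes had r over 0.9. These describe only 6 libraries in 2 groups, whose depths differ, and are given without a test.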

How the data were processed

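Total RNA was extracted with Trizol. The authors made TruSeq libraries and sequenced both ends of the fragments on a NextSeq. Base calls were converted with bcl2fastq and reads quantified with Salmon (version 1.1). The gene model was a Gencode release, of which neither the species series nor the build is given in the sources used here. The authors deposited estimated counts (expected counts) per Ensembl gene in whole numbers and unnormalized. Neither the summing of transcripts to genes nor the use of strand is stated. Salmon divides reads between similar sequences by probability, so counts of overlapping genes are uncertain.

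Columns gave the group of a library but no replicate number of the labels. Identifiers were named from GENCODE vM39 (GRCm39), which matched 35222 of 35565. The counts were fitted in edgeR (version 4.0.16) under R (version 4.3.3) with filterByExpr, TMM, robust quasi-likelihood fit with the condition as the only term, Benjamini-Hochberg over 15110 genes. Standard errors are the log2 fold change over the root of F. CPM are TMM-normalized, and CPM per kb divide by the longest transcript. Intervals for counts of 0 take 3 counts as the limit and cover counting error only. The biological coefficient of variation was 10.6%. Pattern likeness used log2(CPM + 0.5).

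In a simulation of KD-1 against Control (NT) in which 200 genes differed by 1.5 on the log2 scale, 197 of them were called by edgeR, with 5 of 14908 unchanged genes. DESeq2 (version 1.42.0) called 184 and 0 of 17148, and limma-voom (limma version 3.58.1) called 197 and 4 of 14908.

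The members and gene lists were chosen with earlier results of these data known. Genes named are the members, the called genes with the 3 largest rises and 3 largest falls of each list, any gene of a list of 9 or fewer, the 3 genes most like *Yap1* or *Ccn1*, and *Srf*, *Cd37*, *Gm49361* and antisense genes, chosen after their values were seen. The alternatives were DESeq2, limma-voom, other normalizations, filters and thresholds, other lengths, each library left out, and, chosen after seeing the data, the trend on transcript length removed by a lowess.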

Additional observations from a re-analysis of the deposited data

How the results depend on the processing

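No member changed direction under any of the 18 alternative settings. Of the members, *Tead1* and *Tead2* were called under all of them. The number of members called was 2 with an absolute log2 fold change over 1 and 2 with glmTreat against a 1.5-fold change (*Tead1* and *Tead2*), and otherwise 5 or 6, with the 5 lacking *Tead4* or, without the highest-depth Control (NT) library, *Ccn2*. *Wwtr1*, *Yap1*, *Amotl2* and *Ccn1* were called under none, with log2 fold changes of 0.14 to 0.28, 0.06 to 0.15, -0.22 to -0.11 and 0.06 to 0.36. Over all genes, 5704 were called, against 3274 with an absolute log2 fold change over 1, 9597 with no fold change threshold and 3763 with glmTreat, and 5979 with DESeq2. Of the cascade genes other than members, 19 were called, against 7 with an absolute log2 fold change over 1 and 36 with no fold change threshold. The difference in the share of *Tead4* lay between -0.056 and 0.047 percentage points with each library left out, and the other shares kept their sign. Counts of *Ccn1*, *Tead3* and *Tead4* limit their precision, with at most 369 per library. Leaving out a library reduces a group to 2. No paired analysis was possible because the columns of the count table carry no replicate number of the sample labels.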
